A study of Mus musculus with 12 samples.

Results

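The genes described here encode the proteins of the cytosolic ribosome, measured by RNA sequencing in mouse LSK cells. They were chosen by symbol and level: protein-coding genes named Rpl or Rps with a number, together with Rplp0, Rplp1, Rplp2 and Rpsa, without the Rps6k kinases, and with a mean of at least 5 CPM (read counts scaled to a common library size) over the 12 libraries. Of 55471 genes in the table, 86 carried such a name and 80 reached that level. The 80 comprise 47 large-subunit and 32 small-subunit names and Rps19bp1. Rps19bp1 entered by its name alone, since it encodes a protein that binds Rps19 and not a ribosomal protein. Just above the level minimum stood Rps27rt at 6.19 CPM and Rps19bp1 at 21.5 CPM, and just below it Rpl24 at 3.56 and Rpl36al at 3.45 CPM. Rps27rt reached the minimum only through the Bcat_KO libraries. The other 4 names under the minimum were Rps10, Rpl3l, Rpl39l and Rpl10l, at 1.68, 1.17, 1.10 and 0.0088 CPM. Rpl24, Rps10 and Rpl36al share 47.0, 20.6 and 24.5% of their exon bases on the same strand with Gm28037, RPS10-NUDT3 and Gm49383. The counts of these genes are therefore uncertain. All 80 passed the filter on low counts and were tested.

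Each ribosome pairs a small subunit, which holds the mRNA and checks the codon, with a large subunit, which joins the amino acids. Their proteins are needed in nearly equal amounts, and most are encoded by a single active gene surrounded by many silent processed copies elsewhere in the genome. Their mRNAs begin with a run of pyrimidines, the terminal oligopyrimidine or TOP motif, through which translation is coupled to growth signals. Blood-forming stem cells keep protein synthesis low compared with their progeny, and inherited loss of 1 copy of several of these genes in humans causes Diamond-Blackfan anaemia, a failure of red-cell production.

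LSK cells lack lineage markers and carry Sca1 and Kit, a fraction in which blood-forming stem cells are enriched together with their early progeny. The donors were primary transplanted mice, 6 weeks past tamoxifen. Libraries were made from dKO cells (β-catenin and Hoxa9), HOXA9_KO cells, Bcat_KO cells (β-catenin) and WT cells, and from PRMT1_KO cells, whose controls carry a name of their own (WT_PRMT1) and are treated here as a separate experiment, with 2 libraries per group. A library is named here by its group and the S tag of its column, as in dKO S6. The series title speaks of β-catenin and Hoxa9 in DNA replication, genome integrity and stem cell function, dependent on the arginine methyltransferase Prmt1. Titles call the groups KO whereas the genotype field calls them knockdown. The sources used here give neither the Cre line, the alleles nor the number of animals behind a library, so p-values measure only the spread between libraries, which may be technical.

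Depth ran from 17569709 to 40553891 counts per library, and replicate libraries differed by more than counting noise in every group. Prmt1 stood at 107 and 102 CPM in PRMT1_KO and 284 and 295 CPM in WT_PRMT1. Hoxa9 was at 8.32 to 12.7 CPM in the 4 dKO and HOXA9_KO libraries and at 59.4 and 61.0 CPM in WT. Ctnnb1, the β-catenin gene, was at 219 and 241 CPM in dKO, 289.8 and 279 CPM in Bcat_KO and at 319 and 348 CPM in WT. Kit and Ly6a (Sca1), which define the gate, were detected in every library and varied between groups. Kit was at 300.3 and 282 CPM in PRMT1_KO and 145 and 141 CPM in WT_PRMT1, and at 347 and 425 CPM in dKO, 480.0 and 353 CPM in HOXA9_KO, 446 and 450.0 CPM in Bcat_KO and 274 and 274 CPM in WT. Ly6a was at 271 and 248 CPM in PRMT1_KO and 100 and 87.8 CPM in WT_PRMT1, and at 192 and 159 CPM in dKO, 140.2 and 153 CPM in HOXA9_KO, 77.5 and 77.7 CPM in Bcat_KO and 94.3 and 105 CPM in WT. Groups also differed in sex-linked RNA. The Y-linked gene Ddx3y was at 62.7 to 85.0 CPM in the knockout libraries and at 0.796 to 2.92 CPM in WT and WT_PRMT1. Xist ran the opposite way, at 166 CPM or more in WT and WT_PRMT1. Among the knockouts it was at 11.8 and 22.9 CPM in Bcat_KO and at 0.70 CPM or less in the others. Knockout and sex therefore cannot be told apart in any knockout-to-control comparison. Sex also does not cancel in the departure from additivity below, which sets WT beside knockout groups. Summed markers of other blood cells also varied. The 9 neutrophil genes summed to 2229 and 1528 CPM in dKO, 77.6 and 1129 CPM in HOXA9_KO, 18.4 and 30.4 CPM in Bcat_KO and 1722 and 445 CPM in WT. The 9 erythroid genes summed to 185 and 404 CPM in dKO, 272 and 166 CPM in HOXA9_KO, 41.4 and 27.9 CPM in Bcat_KO and 1233 and 322 CPM in WT, and in Bcat_KO the neutrophil genes Ltf, Retnlg and Mmp9 and the erythroid gene Trim10 had no count. The 7 B-cell genes summed to 133 and 67.2 CPM in dKO, 169 and 314 CPM in HOXA9_KO, 70.2 and 69.9 CPM in Bcat_KO and 572 and 695 CPM in WT, and the 7 stromal and endothelial genes to 629.7 and 796 CPM in dKO, 473 and 356 CPM in HOXA9_KO, 204 and 199 CPM in Bcat_KO and 167 and 129 CPM in WT. The 7 T and NK cell genes summed to 103 and 70.1 CPM in dKO and 86.5 and 84.8 CPM in HOXA9_KO. They summed to 140.2 and 142 CPM in Bcat_KO and 116 and 126 CPM in WT. Of these, Cd3e had no count in HOXA9_KO or Bcat_KO. The part of the gate genes and of these markers in the results below was not tested.

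The region around the start of transcription is shown for 12 members because the TOP motif and the factor sites near it are what this family is known for. Sequences are RefSeq promoters on GRCm38.p6, from 30 bases before the annotated start to 20 bases from the start onward, read 5′ to 3′. Capitals mark the TOP-like letters (CTTTC, alternatively CTTTT, alternatively CTCTT) where they lie on the gene's strand from 3 bases before to 7 bases after the start. The first 6 are, of the members with such a match that were called higher in PRMT1_KO, those with the largest differences from WT_PRMT1, and the next 4 are members that were not called there.
Rpl12 (chr2:32961682-32961731, plus strand): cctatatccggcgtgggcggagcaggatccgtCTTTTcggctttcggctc
Rps9 (chr7:3704011-3704060, plus strand): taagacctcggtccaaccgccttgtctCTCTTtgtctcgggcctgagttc
Rps6 (chr4:86857348-86857397, minus strand): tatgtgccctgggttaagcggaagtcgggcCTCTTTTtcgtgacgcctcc
Rps18 (chr17:33955646-33955695, minus strand): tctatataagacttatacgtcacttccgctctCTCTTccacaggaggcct
Rpl14 (chr9:120571487-120571536, plus strand): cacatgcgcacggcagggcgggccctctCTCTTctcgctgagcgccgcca
Rpl7a (chr2:26910777-26910826, plus strand): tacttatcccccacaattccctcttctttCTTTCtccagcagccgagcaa
Rpl7l1 (chr17:46782637-46782686, minus strand): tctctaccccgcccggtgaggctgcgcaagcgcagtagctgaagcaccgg
Rps27l (chr9:66946056-66946105, plus strand): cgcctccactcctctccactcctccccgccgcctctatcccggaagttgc
Rps19bp1 (chr15:80264287-80264336, minus strand): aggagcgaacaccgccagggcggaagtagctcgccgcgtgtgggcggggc
Rpl31 (chr1:39367821-39367870, plus strand): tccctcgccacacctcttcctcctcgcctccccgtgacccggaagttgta
The last pair are Rps27, a small-subunit gene, and its retrogene Rps27rt, which share a run of 19 bases from the pyrimidines onward and differ upstream of it.
Rps27 (chr3:90213629-90213678, minus strand): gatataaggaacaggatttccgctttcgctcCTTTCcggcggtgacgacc
Rps27rt (chr9:114982720-114982769, minus strand): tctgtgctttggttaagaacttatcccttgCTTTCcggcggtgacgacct

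Promoters could be matched for 60 of the 80 members, with 71 annotated starts. The TOP-like letters were found at 14 of these 71 starts (19.7%), against 2.61% of all 32851 promoters in the table. CCGGAAG, the site of the ETS factor GABPA, occurred on either strand in 35.2% of member promoters (250 bases before to 50 after the start) and 8.86% of all promoters, and AAGATGG, the core of the YY1 site, in 16.9% and 6.34%. TATAAA occurred in 9.86% and 13.6%. Over a wider window, from 25 bases before to 25 after the start, 38.0% of member promoters and 16.4% of all held one of the TOP-like letters. That window was added after the first result was seen, and the share rose for members and for all promoters alike. Whether annotated starts lie a few bases from the pyrimidine run was not tested. A match is a string of letters and not a mapped start or a bound site.

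The members differed widely in level. Per kilobase of annotated exon, the highest averages over all libraries were those of Rplp1 (4616 CPM per kb), Rps3a1 (2728), Rps15 (2726), Rplp0 (2677) and Rps4x (2450.1). The lowest were Rps27rt (16.5 CPM per kb), Rps19bp1 (19.9), Rpl7l1 (36.5), Rpl13a (42.3) and Rpl22l1 (81.4). Rpl13a is an ordinary large-subunit gene, and 35.4% of its exon bases are shared on the same strand with Gm45713, Mir5121 and Snord33, so its count is uncertain. Near-identical copies (97% identity over at least 100 bases) were found in the annotation for 73 members, up to 34 for 1 member, and the sources used here do not say how reads that fit several copies were counted. The 361 annotated pseudogene copies held 0.0573 to 0.0837% of all counts in the PRMT1_KO and WT_PRMT1 libraries. In the libraries of the other experiment they held 0.117 to 0.139%. The part of this in comparisons between the experiments was not tested.

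PRMT1_KO was the only one of the 4 knockout groups in which the ribosomal protein genes took, on average, a larger share of the library than in its controls. The 80 members took 16.3 and 15.1% of counts in PRMT1_KO and 12.4 and 11.9% in WT_PRMT1. Their share in the other experiment was 12.1 and 13.0% in dKO libraries, 11.5 and 12.1% in HOXA9_KO libraries, 12.2 and 12.1% in Bcat_KO libraries and 13.4 and 12.9% in WT libraries. Both subunits moved alike in PRMT1_KO: small-subunit genes took 7.36 and 6.74% there and 5.71 and 5.41% in WT_PRMT1, and large-subunit genes 8.95 and 8.37% in PRMT1_KO and 6.70 and 6.47% in WT_PRMT1. With 2 libraries against 2, the smallest two-sided exact permutation p is 0.333, so these shares carry no test. Fewer cells of a type and less RNA per cell cannot be told apart in such bulk samples.

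**Figure D1:**
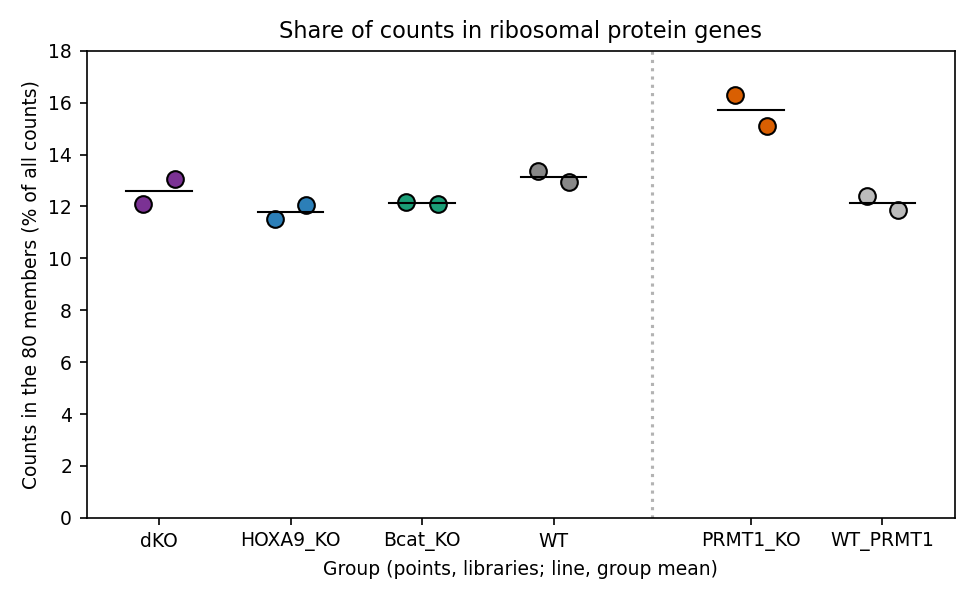
Share of all counts in the 80 ribosomal protein genes (y axis, percent) in each of the 12 libraries (points) by group, with the group mean as a line; the dotted line separates the experiments. The PRMT1_KO libraries lie at 16.3 and 15.1%, above the other 10, which span 11.5 to 13.4%.

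In PRMT1_KO cells nearly the whole family rose. Of 80 members 75 were called higher and 0 lower at an adjusted p under 0.05 (edgeR quasi-likelihood, Benjamini-Hochberg over 17063 genes), where 16.6% of all genes were called higher and 16.0% lower. The median log2 difference of the members was 0.47, a 1.38-fold higher level, and that of all genes tested was -0.03. In 77 of 80 members both PRMT1_KO libraries lay above both WT_PRMT1 libraries, as in 33.0% of all genes. The rises were of similar size, with the middle of the members between 0.37 and 0.56 (lower and upper quartiles). Of the 75 calls, 65 held whichever library was left out and under every other setting tried. Without PRMT1_KO S8 there were 67 calls. Scaling by library size alone moved the median of all genes by -0.14 and left 65 members higher, 1 lower and a median of 0.33. Other markers moved in the same comparison: the 9 neutrophil genes summed to 2088 and 1756 CPM in PRMT1_KO and 682 and 749 CPM in WT_PRMT1, the 9 erythroid genes to 69.0 and 68.7 CPM in PRMT1_KO and 643 and 578 CPM in WT_PRMT1, and the 7 B-cell genes to 69.7 and 71.3 CPM in PRMT1_KO and 789 and 751 CPM in WT_PRMT1, with no gene of these lists at 0 in both libraries of a group. The 7 stromal and endothelial genes summed to 275 and 268 CPM in PRMT1_KO and 408 and 684 CPM in WT_PRMT1, and Kit and Ly6a were higher in PRMT1_KO by the values given above. The 7 T and NK cell genes summed to 89.0 and 93.1 CPM in PRMT1_KO and 70.5 and 72.2 CPM in WT_PRMT1. Receptor genes for smell and pheromones (Olfr and Vmnr) summed to 79.3 and 73.6 CPM in PRMT1_KO and 144 and 148 CPM in WT_PRMT1. The part of all these genes in the rise was not tested.

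**Figure D2:**
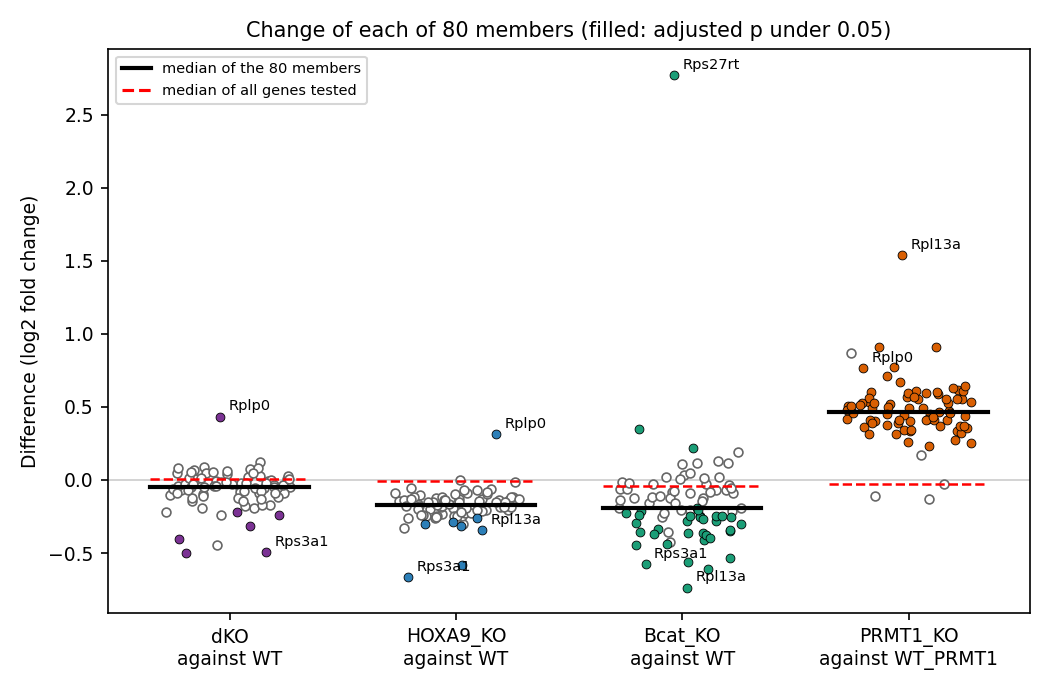
Log2 fold change of each of the 80 members (points, filled where adjusted p is under 0.05) in the 4 comparisons with a control, with the median of the members (black line) and of all genes tested (dashed red line). The PRMT1_KO points centre on 0.47 and those of dKO on -0.05, of HOXA9_KO on -0.17 and of Bcat_KO on -0.19.

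The largest rise in PRMT1_KO was that of Rpl13a, a large-subunit protein known in human cells also for silencing translation of inflammatory mRNAs. It stood at 218 and 189 CPM in PRMT1_KO and 66.6 and 73.4 CPM in WT_PRMT1 (1.54 ± 0.10, adjusted p = 7.06e-09), with the overlap stated above. Rpl3, which lines the peptidyl transferase centre, stood at 5589 and 5245 CPM in PRMT1_KO and 2785 and 2979.7 CPM in WT_PRMT1 (0.91 ± 0.06, adjusted p = 1.15e-08). Rpl12, at the base of the stalk where translation factors dock, stood at 3568 and 3176 CPM in PRMT1_KO and 1753 and 1829 CPM in WT_PRMT1 (0.91 ± 0.07, adjusted p = 2.72e-08). The groups did not overlap in any of these genes. Rps9, on the small-subunit body, was at 4506 and 4016 CPM in PRMT1_KO and 2649.9 and 2546 CPM in WT_PRMT1 (0.71 ± 0.07, adjusted p = 4.83e-07). Rpl4, part of the exit tunnel, was at 5730.1 and 5596 CPM in PRMT1_KO and 3720.0 and 3717 CPM in WT_PRMT1 (0.61 ± 0.06, adjusted p = 3.73e-07). Every one of these calls held whichever library was left out.

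The stalk proteins rose together in PRMT1_KO. Rplp0, the anchor of the stalk, was at 7744 and 6995 CPM in PRMT1_KO and 4248 and 4433 CPM in WT_PRMT1 (0.76 ± 0.07, adjusted p = 3.74e-07). Its partners Rplp1 and Rplp2, the acidic proteins that recruit elongation factors, differed by 0.55 ± 0.07, adjusted p = 1.06e-05, and 0.36 ± 0.08, adjusted p = 0.0027. Rpl5 and Rpl11, which carry the 5S rRNA and, when free, bind and restrain Mdm2, rose by 0.49 ± 0.06 and 0.39 ± 0.06. Rpsa, a small-subunit protein also known as a laminin receptor, was at 6461 and 6039 CPM in PRMT1_KO and 4229 and 4022 CPM in WT_PRMT1 (0.60 ± 0.06, adjusted p = 1.24e-06). All 4 X-linked members rose: Rpl10, which completes the large subunit late in its assembly (0.62 ± 0.07), Rpl36a (0.52 ± 0.07), Rpl39, in the exit tunnel (0.49 ± 0.07), and Rps4x (0.44 ± 0.06). Apart from the paralogs and Rps19bp1, 30 of 30 small-subunit genes rose (median 0.45) and 44 of 45 large-subunit genes (median 0.49).

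Of the 19 genes listed as mutated in human Diamond-Blackfan anaemia, 18 were members, and 17 of these rose in PRMT1_KO with a median of 0.40. The exception was Rpl31, near the exit tunnel, at 1303 and 1288 CPM in PRMT1_KO and 1163 and 1137 CPM in WT_PRMT1 (0.17 ± 0.07, adjusted p = 0.0789). Rps19, the gene most often mutated in that disease, had the smallest called rise, at 1912 and 1724 CPM in PRMT1_KO and 1589 and 1502 CPM in WT_PRMT1 (0.23 ± 0.07, adjusted p = 0.0177). That call was lost without PRMT1_KO S8 (0.17), without WT_PRMT1 S11 (0.22) and with library-size scaling (0.093, adjusted p = 0.301).

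**Figure D3:**
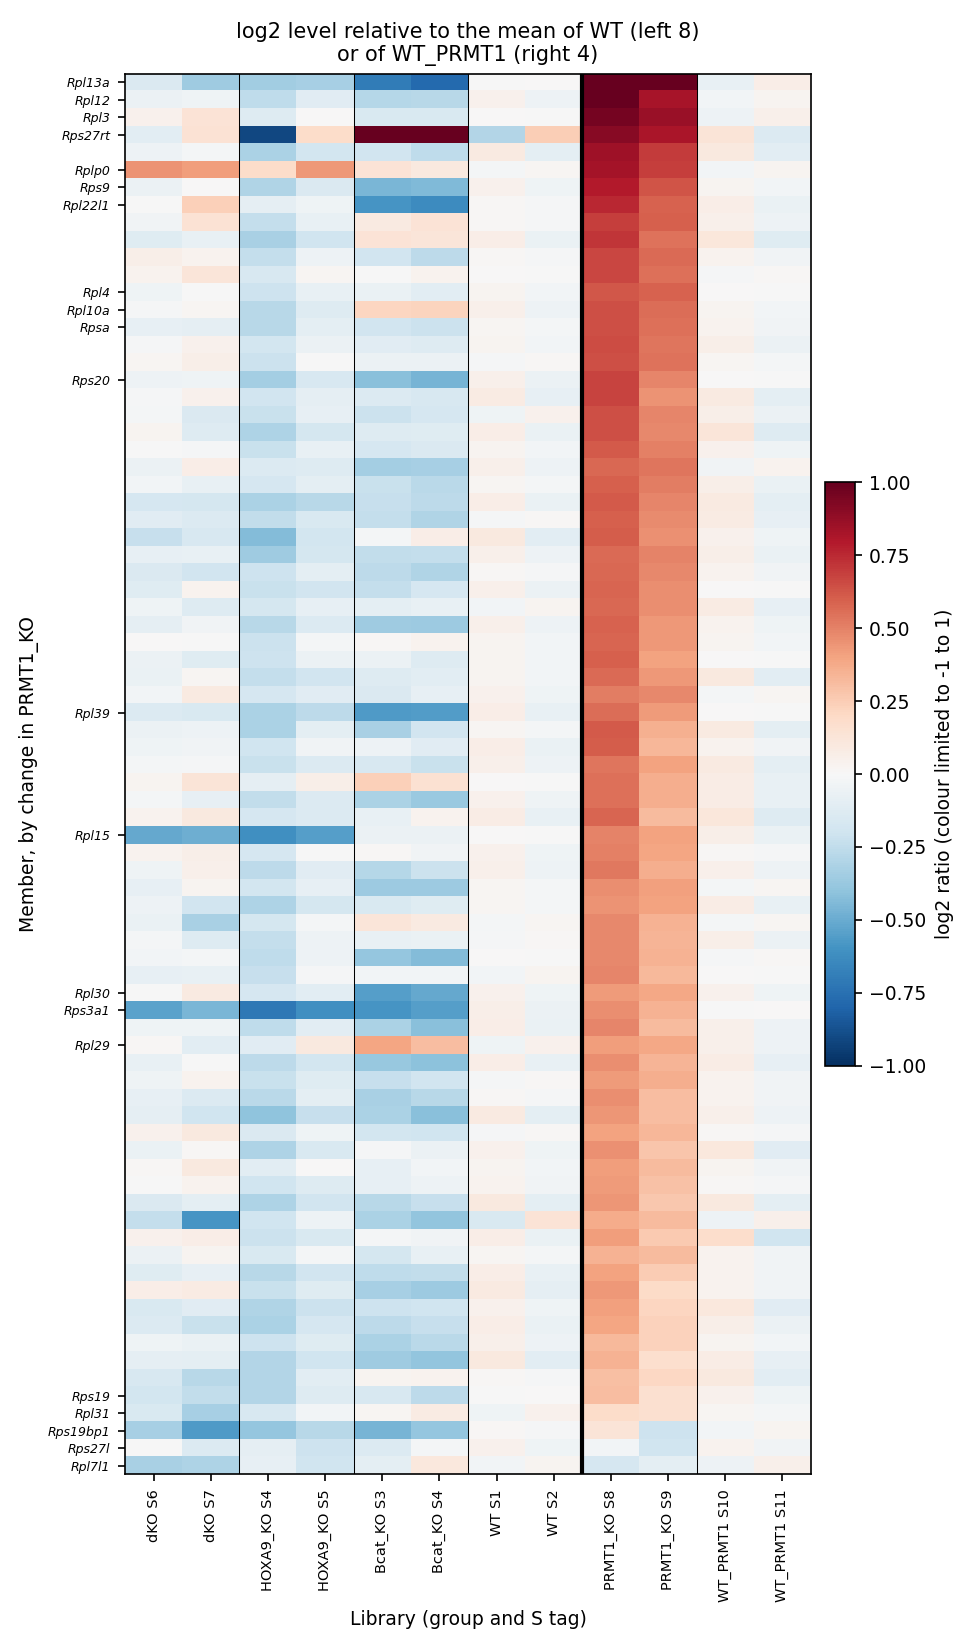
Level of the 80 members (rows, ordered by their difference in PRMT1_KO, with a selection labelled) in the 12 libraries (columns), as the log2 ratio to the mean of WT for dKO, HOXA9_KO, Bcat_KO and WT and to the mean of WT_PRMT1 for PRMT1_KO and WT_PRMT1. Red rows fill both PRMT1_KO columns except at the bottom (Rps19bp1, Rps27l and Rpl7l1), and Rps3a1, Rpl15 and Rplp0 stand out in the dKO and HOXA9_KO columns.

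The 5 members that were not called in PRMT1_KO were Rpl31 and 4 of the 5 genes that are paralogs of a main gene or only named after one. Rps27l, a paralog of Rps27 that p53 activates, was at 102 and 90.7 CPM in PRMT1_KO and 106 and 102 CPM in WT_PRMT1 (-0.11 ± 0.09, adjusted p = 0.417). Rps27 itself was at 1173 and 1136 CPM in PRMT1_KO and 900.3 and 814 CPM in WT_PRMT1 (0.43 ± 0.07, adjusted p = 0.000207). The Rps27l values of the groups overlapped, and those of Rps27 did not. Rpl7l1, a paralog of Rpl7, was at 124 and 129.6 CPM in PRMT1_KO and 134 and 144 CPM in WT_PRMT1 (-0.13 ± 0.09, adjusted p = 0.278), and with library-size scaling it was called lower (-0.27, adjusted p = 0.0343). Rpl7 differed by 0.37 ± 0.06, adjusted p = 7.70e-05. Rps19bp1 differed by -0.03 ± 0.16, adjusted p = 0.918, and its sign turned without PRMT1_KO S9 or WT_PRMT1 S11 (0.13 and 0.016). Rps27rt was at 4.29 and 4.01 CPM in PRMT1_KO and 2.49 and 2.07 CPM in WT_PRMT1 (0.87 ± 0.36, adjusted p = 0.0772). The exception was Rpl22l1, the paralog of Rpl22, at 262 and 234 CPM in PRMT1_KO and 163 and 148 CPM in WT_PRMT1 (0.67 ± 0.09, adjusted p = 2.19e-05), beside 0.50 ± 0.07 for Rpl22. Whether a paralog's difference departs from that of its main gene was not tested.

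**Figure D4:**
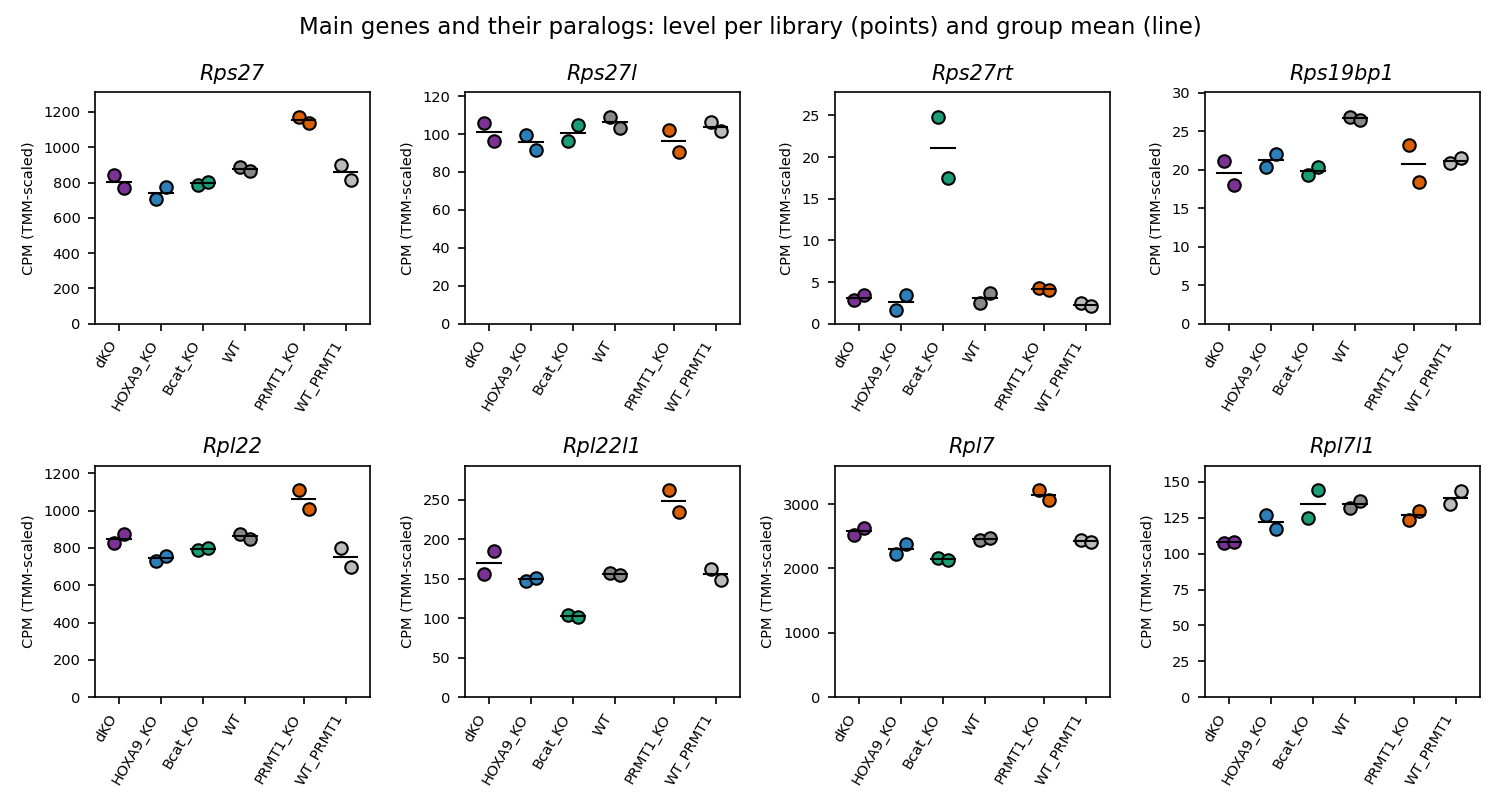
Level in CPM (y axes from 0, scaled by TMM) of Rps27, Rpl22 and Rpl7, of their paralogs and of Rps19bp1 in each library (points) by group, with the group mean as a line. Rps27, Rpl22, Rpl7 and Rpl22l1 are highest in PRMT1_KO, Rps27l and Rpl7l1 are not, and Rps27rt is highest in Bcat_KO.

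With TOP-like letters at the start, as printed above for Rpl12, Rps9 and Rps6, 13 of 14 members rose in PRMT1_KO with a median of 0.50, and without them 42 of 46 rose with a median of 0.47. With CCGGAAG, 22 of 24 rose (median 0.47), and without it 33 of 36 (median 0.48). By the number of near-identical copies, 5 of 7 members without any, 39 of 40 with 1 to 4 and 31 of 33 with 5 or more rose, with medians of 0.50, 0.45 and 0.47. Differences between these subgroups were not tested.

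Other mRNAs of the translation machinery moved with the members in PRMT1_KO. Ribosomal genes that the naming rule misses also rose: Rack1, the scaffold of the small subunit, was at 4317 and 4008 CPM in PRMT1_KO and 2523 and 2550.3 CPM in WT_PRMT1 (0.71 ± 0.06, adjusted p = 1.93e-07), and Fau, which encodes Rps30, differed by 0.37 ± 0.08. Of 18 other TOP mRNAs, 14 rose and 1 fell (median 0.41). The elongation factor Eef1a1 was at 30275 and 28415 CPM in PRMT1_KO and 16345 and 17625 CPM in WT_PRMT1 (0.79 ± 0.06, adjusted p = 1.44e-08). The elongation factor Eef2 differed by 0.81 ± 0.06, the snoRNA host gene Gas5 by 1.02 ± 0.08 and the initiation factor subunit Eif3e by 0.80 ± 0.07. The exception was Eef1d, an exchange factor subunit, at 215 and 207 CPM in PRMT1_KO and 313 and 282 CPM in WT_PRMT1 (-0.50 ± 0.08, adjusted p = 8.82e-05).

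Among factors that handle or control ribosomal proteins, some were called higher and some lower in PRMT1_KO, where 16.6% of all genes were called higher and 16.0% lower. Of 12 chaperones and importins, 3 rose and 2 fell (median -0.09), among them the importin Ipo9 (-0.75 ± 0.09) and transportin Tnpo1 (0.59 ± 0.09). Of 13 assembly factors, 3 rose and 1 fell (median 0.08), among them the nuclease Nob1, which trims the small-subunit rRNA (0.56 ± 0.10), and Rrs1, which helps load the 5S particle (-0.50 ± 0.10). Of 14 regulators, 5 rose and 2 fell (median 0.27). Myc, which activates ribosomal protein genes, was at 246 and 279.8 CPM in PRMT1_KO and 168 and 144 CPM in WT_PRMT1 (0.75 ± 0.11, adjusted p = 2.93e-05). Larp1, which binds the TOP motif, differed by 0.58 ± 0.09, Eif4ebp1, the mTOR-controlled repressor of cap binding, by 0.65 ± 0.12, and Rptor, a subunit of the mTOR complex, by -0.60 ± 0.13. Of 7 genes listed under ribosomal stress and p53, 3 fell (median -0.40): Trp53 itself (-0.46 ± 0.08), Bax (-0.40 ± 0.13) and Znhit6 (-0.49 ± 0.17).

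The knockouts of the other experiment did not show this rise. In dKO cells 1 member was called higher and 6 lower, where 9.15% of all genes were called higher and 8.52% lower, and the median was -0.05 against 0.01 for all genes. The difference between the experiments was tested directly, as the difference of dKO from WT minus that of PRMT1_KO from WT_PRMT1. It was called below 0 in 72 of 80 members and above 0 in none (7.75% and 7.93% of all genes; 75 members at an unadjusted p under 0.05), with a median of -0.52 against 0.03. Rpl13a departed most (-1.78 ± 0.14), followed by Rpl12 (-0.97 ± 0.10), Rpl15 (-0.95 ± 0.09), Rps3a1 (-0.90 ± 0.09), Rpl3 (-0.82 ± 0.09) and Rpl9 (-0.70 ± 0.09). Of the 72 calls, these 6 among them, 54 held whichever library was left out and under every other setting, and 57 were made without PRMT1_KO S8. Library-size scaling moved the median of all genes by 0.11 and gave 63 calls. Knockout and experiment cannot be told apart within this contrast.

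Rplp0, Rps3a1 and Rpl15 were the members called in both dKO and HOXA9_KO against WT. Rplp0 was at 4453 and 4372 CPM in dKO, 3704 and 4402 CPM in HOXA9_KO, 3584 and 3501 CPM in Bcat_KO and 3220.4 and 3309.9 CPM in WT. It was the only member called higher in dKO (0.43 ± 0.07, adjusted p = 0.000344) and in HOXA9_KO (0.31 ± 0.07, adjusted p = 0.0117), and the call in HOXA9_KO was lost without HOXA9_KO S5, WT S1 or WT S2 (adjusted p = 0.183, 0.156 and 0.061). It differed by 0.12 ± 0.07, adjusted p = 0.276 in Bcat_KO. Together with PRMT1_KO it was thus called higher in 3 of 4 comparisons with a control, of which those with dKO and HOXA9_KO share the WT libraries. Rplp0 also differed between the control groups, at 4248 and 4433 CPM in WT_PRMT1 (0.41 ± 0.07, adjusted p = 0.00141 against WT).

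Rps3a1, a small-subunit protein near the mRNA exit, was at 2159.8 and 2277 CPM in dKO, 1901 and 2039.8 CPM in HOXA9_KO, 2071 and 2127 CPM in Bcat_KO and 3248 and 2998 CPM in WT. All 6 knockout libraries lay below both WT libraries. It fell in dKO (-0.49 ± 0.06, adjusted p = 3.50e-05), in HOXA9_KO (-0.66 ± 0.06, adjusted p = 3.61e-06) and in Bcat_KO (-0.57 ± 0.06, adjusted p = 1.72e-05), 3 comparisons that share the WT libraries, and each call held whichever library was left out. In PRMT1_KO it rose (0.41 ± 0.06, adjusted p = 8.27e-05). No other member was called lower in 3 of the 4.

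Rpl15, a large-subunit protein, fell where Hoxa9 was targeted. It was at 683 and 693 CPM in dKO, 635 and 663 CPM in HOXA9_KO, 932 and 933 CPM in Bcat_KO and 976 and 967 CPM in WT. The 4 libraries of dKO and HOXA9_KO lay below the 4 of Bcat_KO and WT. It differed from WT by -0.50 ± 0.07, adjusted p = 4.99e-05 in dKO and by -0.58 ± 0.07, adjusted p = 2.79e-05 in HOXA9_KO, and from Bcat_KO by -0.44 ± 0.07, adjusted p = 0.000135 in dKO and by -0.52 ± 0.07, adjusted p = 6.48e-05 in HOXA9_KO. In Bcat_KO against WT it differed by -0.06 ± 0.07, adjusted p = 0.586. These comparisons share libraries.

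**Figure D5:**
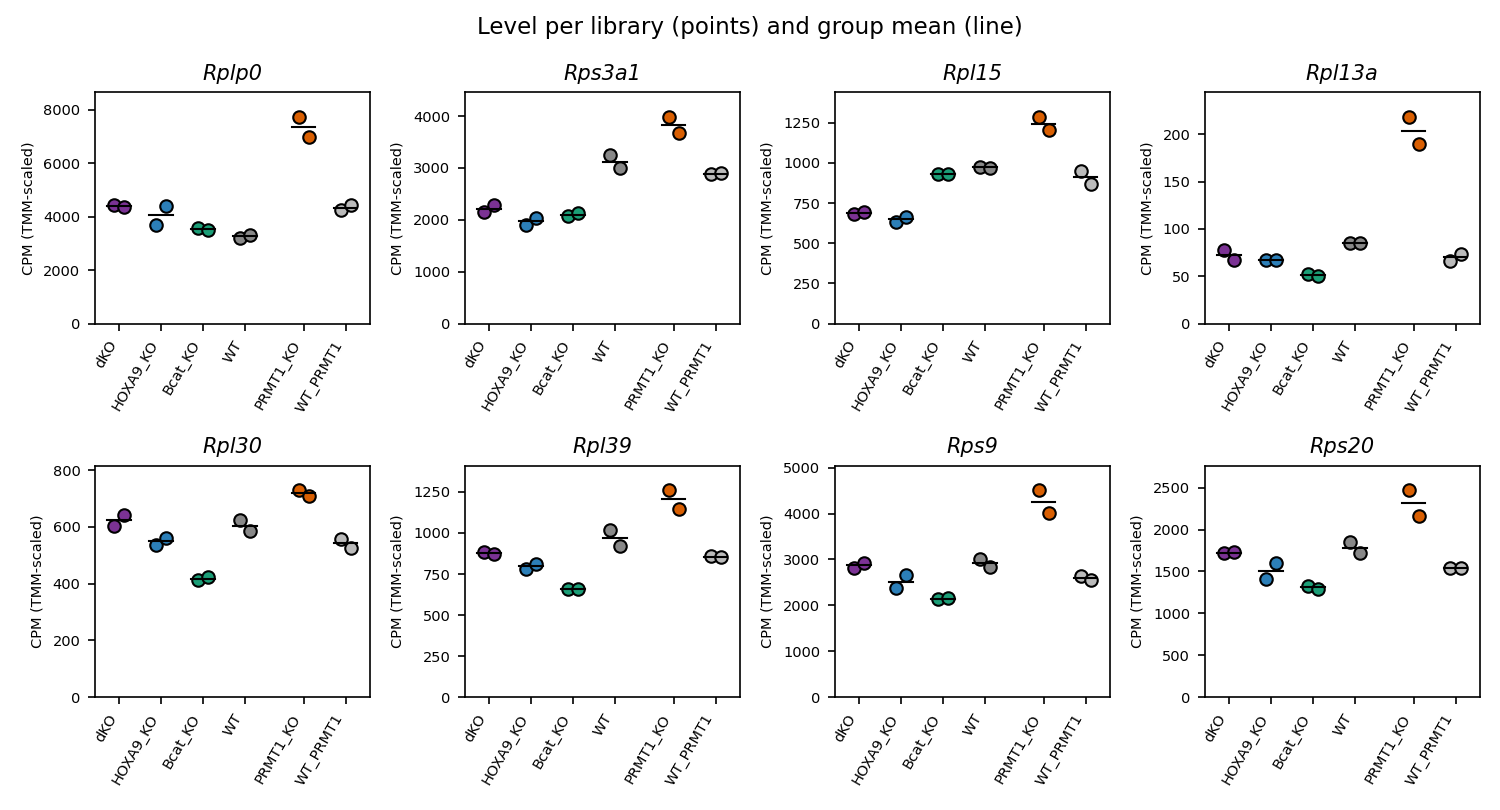
Level in CPM (y axes from 0, scaled by TMM) of 8 members in each library (points) by group, with the group mean as a line. Rps3a1 is lower in dKO, HOXA9_KO and Bcat_KO than in WT, Rpl15 in dKO and HOXA9_KO, and Rpl30, Rpl39, Rps9 and Rps20 are lowest in Bcat_KO among the first 4 groups.

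In HOXA9_KO most members had slightly lower values than in WT, and few were called. Of 80 members 79 had a value below 0, and the median was -0.17 against -0.0041 for all genes, while 7 were called lower and 1 higher, where 2.30% of all genes were called lower and 4.44% higher. Besides Rps3a1, Rpl15 and Rplp0 these were Rplp1 (-0.30 ± 0.07), Rpl39 (-0.29 ± 0.07), Rps29 (-0.31 ± 0.08), Rps23 (-0.26 ± 0.07) and Rpl13a (-0.34 ± 0.10). The count of calls moved with the method, from 5 without a robust prior to 29 with DESeq2, and the calls on Rplp1, Rpl39, Rps29 and Rps23 were lost without WT S1 (adjusted p = 0.244, 0.306, 0.373 and 0.337). It was 2 without WT S1, 3 without HOXA9_KO S4, 5 without WT S2 and 16 without HOXA9_KO S5. The calls on Rps3a1 and Rpl15 held under every setting and left-out library.

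Besides Rps3a1 and Rpl15, the members lower in dKO included Rpl7l1, Rpl31 and Rps19. Rpl7l1 was at 107 and 108 CPM in dKO and 132 and 137 CPM in WT (-0.31 ± 0.09, adjusted p = 0.0189), Rpl31 at 1036 and 915 CPM in dKO and 1117 and 1185 CPM in WT (-0.24 ± 0.07, adjusted p = 0.0282). Rps19 differed by -0.22 ± 0.07, adjusted p = 0.0464. The call on Rpl7l1 was lost whichever library of the comparison was left out (-0.34 to -0.26). Those on Rpl31 and Rps19 were lost without dKO S7, WT S1 or WT S2. They were also lost with the compared groups only and with a non-robust prior, and that on Rps19 with a mean of 5 CPM. The calls on Rplp0, Rps3a1 and Rpl15 held under every setting and left-out library. The count was 3 without dKO S7 or WT S2 and 4 without WT S1.

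In Bcat_KO cells a large subset of the members fell while a few rose. Of 80 members 33 were called lower and 3 higher, where 9.76% of all genes were called lower and 7.48% higher, and the median was -0.19 against -0.04. The lower ones were 16 of 30 small-subunit genes, 16 of 45 large-subunit genes and the paralog Rpl22l1. Rpl39 was at 657 and 658 CPM in Bcat_KO and 1019 and 924 CPM in WT (-0.56 ± 0.07, adjusted p = 5.12e-05). Rpl30, a large-subunit protein, was at 412 and 423 CPM in Bcat_KO and 623 and 584 CPM in WT (-0.53 ± 0.07, adjusted p = 8.99e-05). Rps9 was at 2130.2 and 2162 CPM in Bcat_KO and 3012 and 2845 CPM in WT (-0.45 ± 0.07, adjusted p = 0.000329). Rpl22l1 was at 104 and 101 CPM in Bcat_KO and 158 and 155 CPM in WT (-0.61 ± 0.09, adjusted p = 0.000312), and Rpl13a at 52.7 and 49.8 CPM in Bcat_KO and 85.0 and 85.7 CPM in WT (-0.74 ± 0.10, adjusted p = 0.000132). In each of these genes the groups were far apart relative to the spread within them. Of the X-linked members, Rps4x (-0.36 ± 0.06), Rpl39 and Rpl10 (-0.23 ± 0.07) fell, and Rpl36a differed by -0.20 ± 0.07, adjusted p = 0.0611. Of the other members described by role, Rplp1 (-0.25 ± 0.07), Rplp2 (-0.25 ± 0.08), Rpsa (-0.21 ± 0.06) and Rpl11 (-0.21 ± 0.06) were called lower. These 4 calls and that on Rpl10 were each lost without Bcat_KO S3, without Bcat_KO S4, without WT S1 and with library-size scaling. Of the 36 calls, 13 held under every setting and left-out library, and the count was 15 without WT S1, 17 without Bcat_KO S4 and 20 without Bcat_KO S3. As given above, neutrophil and erythroid markers were also lowest in Bcat_KO and B-cell markers lower than in WT. T and NK cell markers and stromal and endothelial markers were instead higher there than in WT. Receptor genes for smell and pheromones (Olfr and Vmnr) summed to 15.9 and 11.7 CPM in Bcat_KO and 183 and 139 CPM in WT. They summed to 88.1 and 88.6 CPM in dKO and 88.0 and 63.0 CPM in HOXA9_KO. The Bcat_KO libraries were also the deepest, at 29943990 and 40553891 counts. The part of these in the fall, and in the other contrasts that use Bcat_KO, was not tested.

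The 3 members higher in Bcat_KO were Rps27rt, Rpl29 and Rpl10a. Rps27rt was at 24.8 and 17.4 CPM in Bcat_KO and 2.51 and 3.66 CPM in WT (2.77 ± 0.36, adjusted p = 8.99e-05), the largest difference of any member in this comparison, and the other 10 libraries held 1.64 to 4.29 CPM. It reached the level minimum only through the Bcat_KO libraries, so its place among the members rests on the values compared here. That limit applies to Rps27rt in every contrast that uses Bcat_KO. The transcript of Rps27rt is 100% identical to that of Rps27 over 341 bases, so reads of the pair may be split between them. Rps27 stood far higher, at 787 and 805 CPM in Bcat_KO and 888 and 865 CPM in WT (-0.14 ± 0.07, adjusted p = 0.207). Rpl29 was at 1089 and 1027 CPM in Bcat_KO and 805 and 854 CPM in WT (0.35 ± 0.08, adjusted p = 0.00523), and Rpl10a at 1349 and 1359 CPM in Bcat_KO and 1205 and 1124 CPM in WT (0.22 ± 0.07, adjusted p = 0.0353). The call on Rps27rt held throughout, that on Rpl29 was lost without WT S1 or Bcat_KO S3 (adjusted p = 0.106 and 0.070), and that on Rpl10a whichever library of the comparison was left out (up to 0.312).

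Among TOP mRNAs outside the family, 6 of 18 fell and 1 rose in Bcat_KO, with a median of -0.16. Over all genes, 9.76% were called lower in Bcat_KO and 7.48% higher. Gas5 was at 199.7 and 195 CPM in Bcat_KO and 334 and 288 CPM in WT (-0.66 ± 0.08, adjusted p = 6.70e-05), Eef1b2 differed by -0.39 ± 0.07 and Eef1a1 by -0.28 ± 0.05. The splicing factor Hnrnpa1 rose (0.33 ± 0.07). Fau and Rack1 fell (-0.35 ± 0.08 and -0.20 ± 0.06). Of the regulators 3 of 14 rose and 1 fell, with Larp1 at 302 and 297 CPM in Bcat_KO and 221 and 205 CPM in WT (0.49 ± 0.09, adjusted p = 0.00124). Of the 7 genes listed under ribosomal stress and p53, 1 was called higher and 0 lower in Bcat_KO, with a median of -0.04. The higher one was Mdm2, the p53 ubiquitin ligase (0.72 ± 0.12, adjusted p = 0.000601). Of 13 assembly factors and 12 chaperones and importins, 1 each rose in Bcat_KO and none fell at that threshold. In dKO, 2 of 18 other TOP mRNAs rose, and 3 of 13 assembly factors and 3 of 12 chaperones and importins fell. Over all genes, 9.15% were called higher in dKO and 8.52% lower. Of the 7 genes listed under ribosomal stress and p53, 1 was called higher and 2 lower in dKO, with a median of -0.17. The higher one was Cdkn1a, the p53 target that halts the cell cycle (0.87 ± 0.12, adjusted p = 6.02e-05). It was at 201 and 220.1 CPM in dKO and 122 and 109 CPM in WT. In HOXA9_KO, 1 of 18 TOP mRNAs (Gas5) and 2 of 13 assembly factors (Rrs1 and Mrto4) fell, where 2.30% of all genes were called lower.

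In dKO cells many members stood higher than the differences of the 2 single knockouts add up to. WT enters this contrast and differs from every knockout group in sex-linked RNA. Sex therefore does not cancel here and cannot be told apart from a departure. Departure from additivity, dKO minus HOXA9_KO minus Bcat_KO plus WT, was called above 0 in 34 members and below 0 in 2, where 4.54% and 3.90% of all genes were called, with a median of 0.30 against 0.04. Rps3a1 departed by 0.74 ± 0.09, adjusted p = 0.00011 with the values given above for the 4 groups. Rpl30 was at 604 and 642 CPM in dKO, 538 and 561 CPM in HOXA9_KO, 412 and 423 CPM in Bcat_KO and 623 and 584 CPM in WT, a departure of 0.71 ± 0.10, adjusted p = 0.000357. Rps20, a small-subunit protein, was at 1718 and 1731 CPM in dKO, 1409 and 1595 CPM in HOXA9_KO, 1331 and 1294 CPM in Bcat_KO and 1849 and 1714 CPM in WT (0.64 ± 0.10, adjusted p = 0.00142). In both genes the dKO libraries were close to WT and the Bcat_KO libraries lowest. Rpl39 (0.70 ± 0.10), Rps9 (0.64 ± 0.10) and Rpl22l1 (0.80 ± 0.13) behaved alike. The 2 members below 0 were Rps27rt (-2.49 ± 0.50) and Rpl29 (-0.39 ± 0.11), both of which were highest in Bcat_KO among the 4 groups of this contrast, and the call on Rpl29 was lost whichever library was left out, except dKO S6 and HOXA9_KO S4. Of the 36 calls 14 held under every setting and left-out library, and the count was 16 without WT S1 and 23 without Bcat_KO S4. The X-linked members Rpl10, Rpl36a, Rpl39 and Rps4x were all among the 34.

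Set against the single knockouts directly, dKO gave more calls against Bcat_KO than against HOXA9_KO. Against Bcat_KO, 33 members were called, 24 of them higher and 9 lower, where 28.1% of all genes were called, 16.2% higher and 12% lower (2760 and 2042 of 17063). The higher ones were led by Rpl30 (0.58 ± 0.07), Rpl22l1 (0.73 ± 0.09), Rps9 (0.42 ± 0.07), Rpl39 (0.42 ± 0.07), Rps4x (0.34 ± 0.06) and Rpl23 (0.34 ± 0.06), and the lower ones by Rps27rt (-2.75 ± 0.36), Rpl15 and Rpl29 (-0.40 ± 0.08). The lower calls also held Rpl31 (-0.29 ± 0.07), Rpl7l1 (-0.32 ± 0.09) and Rpl27 (-0.30 ± 0.08), of which Rpl31 and Rpl7l1 were lost without Bcat_KO S4 (adjusted p = 0.117 and 0.250) and Rpl27 without dKO S7 (0.174). Of these 33 calls 17 held throughout, and 20 were made without Bcat_KO S4. Against HOXA9_KO, no member was called by edgeR with the filter on low counts or by DESeq2, where 0.416% of all genes were called higher and 1.33% lower. At an unadjusted p under 0.05 there were 29, the median was 0.13 against 0.01 for all genes, 71 of 80 values lay above 0, and without dKO S6 there were 2 calls. Without the filter edgeR called 7 members, 6 higher and 1 lower. HOXA9_KO against Bcat_KO gave 8 higher and 8 lower (10.8% and 6.52% of all genes), the higher led by Rpl22l1 (0.54 ± 0.09) and Rpl30 (0.40 ± 0.07) and the lower by Rps27rt (-3.03 ± 0.37), Rpl15, Rpl10a (-0.42 ± 0.07), Rpl27a (-0.39 ± 0.08), Rpl29 (-0.35 ± 0.08) and Rps6, the target of the S6 kinases (-0.27 ± 0.07). Also higher were Rpl39 (0.28 ± 0.07), Rps4x (0.23 ± 0.06), Rpl13a (0.39 ± 0.10) and Rpl19 (0.26 ± 0.07), each lost without Bcat_KO S4. Of these 16 calls 6 held throughout, on Rpl15, Rpl10a, Rpl22l1, Rpl27a, Rps27rt and Rpl30, and 7 were made without Bcat_KO S3 or S4.

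Few members were called between the control groups. Between WT_PRMT1 and WT, 1 member was called higher, Rplp0, and 2 lower, Rpl12 (-0.29 ± 0.07, adjusted p = 0.0114) and Rps12, a small-subunit protein (-0.32 ± 0.08, adjusted p = 0.0209), where 3.71% of all genes were called higher and 3.87% lower. The median was -0.12 against -0.01, and 74 of 80 values lay below 0. The calls on Rpl12 and Rps12 were lost without WT S1 (adjusted p = 0.160 and 0.282), and the count of calls was then 1. Both Rpl12 and Rps12 rose in PRMT1_KO against WT_PRMT1, by 0.91 ± 0.07 and 0.77 ± 0.08, and that comparison shares the WT_PRMT1 libraries with this one.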

How the data were processed

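Total RNA of LSK cells (RNeasy Plus Micro kit, NEB Ultra II Directional libraries, per the labels' protocols) gave gene counts deposited by the authors. Trim Galore 0.6.6, STAR 2.7.6a (GRCm38/mm10) and featureCounts were used, per the submitters' processing notes. The sources used here do not give the strand setting, multi-mapping rule or annotation release, so sense and antisense reads may be mixed. Columns carry a group name and an S tag, which named the libraries, and all were used.

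Gene IDs were matched to GENCODE M21 (55230 of 55471, the rest holding 0.0044% of counts). Counts were tested in edgeR 4.0.16 (R 4.3.3): TMM, minimum count 10, 1 fit over all 12 libraries, robust quasi-likelihood with 6 residual degrees of freedom, Benjamini-Hochberg over 17063 genes, 10 comparisons. The robust prior was settled after the data were seen. CPM are counts relative to the library total, scaled by TMM, shares and marker sums use plain library totals, and ± after a log2 difference is its standard error. The fit was tested on simulated data. Alternatives were RLE factors, library-size scaling, TMM without members, mitochondrial and haemoglobin genes, no filter, a mean of 5 CPM, a non-robust prior, DESeq2 1.42.0, fits of the compared groups only, and each library left out. Copies were found with blastn 2.17.0.

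Members and lists were chosen with earlier results of these data known. Members named are, per comparison and direction, up to 6 called with the smallest adjusted p and no overlap (not asked of additivity and the difference of changes), the stalk and 5S proteins, Rpsa, Rps19, paralogs, X-linked members, the 5 highest and lowest per kb, and those called alike in 3 of 4 comparisons with a control. Lists show up to 4 called genes. Main genes of paralogs, and members completing a count, were added after their values were seen. Some genes are not reported here by name.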

Additional observations from a re-analysis of the deposited data

Results flagged for a closer look

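Departure from additivity between the β-catenin and Hoxa9 knockouts was itself tested and called in 36 of 80 members. It was above 0 in 34 and below 0 in 2, where 4.54% and 3.90% of all genes were called. WT enters this contrast and differs in sex-linked RNA, so sex cannot be told apart from a departure. Among those named, the departures (log2) were 0.74 for Rps3a1, 0.71 for Rpl30, 0.70 for Rpl39, 0.64 for Rps9, 0.64 for Rps20, 0.80 for Rpl22l1, -2.49 for Rps27rt and -0.39 for Rpl29. Rps27rt reached the level minimum for members only through the Bcat_KO libraries.

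The change in dKO relative to WT differed from the change in PRMT1_KO relative to WT_PRMT1 in 72 of 80 members. All of these were below 0, where 7.75% of all genes were called below 0 and 7.93% above 0. The differences (log2) were -1.78 for Rpl13a, -0.97 for Rpl12, -0.95 for Rpl15, -0.90 for Rps3a1, -0.82 for Rpl3 and -0.70 for Rpl9.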

How the results depend on the processing

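No paired analysis was possible because the columns carry no replicate numbers that tie a library to a replicate in the labels. Leaving out 1 library at a time, the members called ranged from 3 to 9 in dKO against WT, 2 to 16 in HOXA9_KO against WT, 15 to 25 in Bcat_KO against WT, 67 to 74 in PRMT1_KO against WT_PRMT1, 0 to 2 in dKO against HOXA9_KO, 20 to 31 in dKO against Bcat_KO, 7 to 13 in HOXA9_KO against Bcat_KO, 16 to 45 for additivity, 57 to 74 for the difference of changes and 1 to 4 in WT_PRMT1 against WT. Among the other settings, dKO against WT gave 4 calls with the compared groups only. HOXA9_KO against WT gave 14 with RLE factors, 13 with TMM without members, mitochondrial and haemoglobin genes, 21 without a filter, 5 without a robust prior and 29 with DESeq2, against 8. Without a filter dKO against HOXA9_KO gave 7 calls and WT_PRMT1 against WT 10, and with the compared groups only the last gave 11. The cause was not tested. The PRMT1_KO share exceeded that of WT_PRMT1 by 2.96 to 4.16 percentage points whichever library was left out, and the dKO share minus the Bcat_KO share turned to -0.027 points without dKO S7, against 0.443. Rps19bp1 in PRMT1_KO (-0.03) ranged from -0.197 to 0.13, above 0 without PRMT1_KO S9 and, at 0.016, without WT_PRMT1 S11. Over 91 pairs of a named member and a comparison, the 8 other settings left 695 values on their side of the threshold, 32 no longer past it and 1 newly past it. With 1 library left out, 337 stayed, 81 were no longer past it and 2 turned sign. With 2 libraries a group, small differences cannot be resolved, and a group reduced to 1 library is assumed to vary like the others.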
